A study of Mus musculus with 2 samples.

Results

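The tripartite motif (TRIM) family was followed in RAW246.1 mouse macrophage cells given synthetic miR-122 or PBS. Members were all non-control probes whose accession resolved to a mouse symbol made of Trim and a digit, which gave 93 probes of 65 genes out of 20659 named genes on the array. Another 4 Trim symbols of the RefSeq table, Trim5, Trim23, Trim30c and Trim43a, had no matched probe. Total RNA labelled with Cy3 was hybridised to 2 single-colour Agilent mouse arrays. The PBS array holds the mock culture, and the miR-122 array holds the culture given synthetic miR-122 at a stated 5 μg/mL; both cultures were grown in DMEM, and the labels give no exposure time. The extraction text names only RIPA buffer. The study asked how liver-derived miR-122 affects the inflammatory activation of macrophages. Each group held 1 array, so no difference below has a replicate, a standard deviation between cultures or a p-value. The labels conflict. One sample is called miR-122 in its source name and description, but its title also says without miR-122, and both samples carry identical treatment text, PBS included. Directions below follow the source name and description, and array position on the shared slide and treatment cannot be told apart.

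Most TRIM proteins are ubiquitin ligases built from a RING finger, which recruits a ubiquitin-loaded E2 enzyme, a B-box and a coiled coil, followed by a C-terminal domain that picks the substrate. In the largest class that end is a PRY-SPRY (B30.2) domain, and others carry NHL repeats, a PHD finger with a bromodomain, or no named domain. Several members are known as interferon-inducible antiviral factors, and others modify the signalling chains of RNA sensors, DNA sensors and Toll-like receptors in macrophages. A tandem cluster of PRY-SPRY genes on mouse chromosome 7 has expanded in rodents and holds the relatives of primate TRIM5, a factor that blocks retroviral capsids.

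Of the 65 Trim genes, 47 had at least 1 probe well above background on both arrays by the flag of the scanner software, 3 on the miR-122 array only, 3 on the PBS array only and 12 on neither. Signals below are processed intensities as deposited, levels are log2 signals minus the 75th percentile of their own array, and differences are levels on the miR-122 array minus levels on the PBS array. The 75th percentile of the miR-122 array was lower by 0.28 on the log2 scale, so folds computed from levels differ from the ratio of the printed signals. They are larger for genes that are higher on the miR-122 array and smaller for genes that are lower. The scanner software gave an error for each signal, which combined to a median of 0.21 for the difference of a Trim gene and to at most 0.44 for the dimmest. This error covers the reading of a spot and not the spread between cultures. Trim8, a RING finger gene whose probe is printed 10 times, showed the spread between spots of 1 array. The standard deviation of its log2 level was 0.03 over 10 spots with PBS and 0.04 over 9 spots with miR-122. Both were below the scanner error of its difference, 0.20, and they describe 1 bright probe and not the dim ones.

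Of the 47 Trim genes measured on both arrays, 28 had a difference above the median of all genes. Of these 47, 10 were at least 2-fold higher, against 4.57% of all 15031 named genes measured on both arrays. At the same size 0 were lower, against 1.78% of all genes. At 1.5-fold, 17 were higher, against 12.1% of all genes, and 2 were lower, against 5.99%. Differences were positive for 31 and negative for 16 Trim genes, where they were positive for 9063 and negative for 5968 of all 15031 named genes. The Trim median was 0.36, and the median over all genes was 0.09. The middle of the Trim distribution ran from -0.11 at the first quartile to 0.92 at the third, and that of all genes from -0.16 to 0.34. Of the 10 higher members, 7 belong to a list of PRY-SPRY genes of chromosome 7, written with earlier results of these data known. These 7 include close Trim30 and Trim34 relatives whose probes may read more than 1 gene, so they are not independent. That list holds Trim6, Trim21, Trim68 and the Trim12, Trim30 and Trim34 genes, and leaves out Trim72, a PRY-SPRY gene elsewhere on the chromosome. Outside that list 3 of 36 genes passed the same size, and their median difference was 0.11. These counts describe 2 arrays and were not tested.

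**Figure D1:**
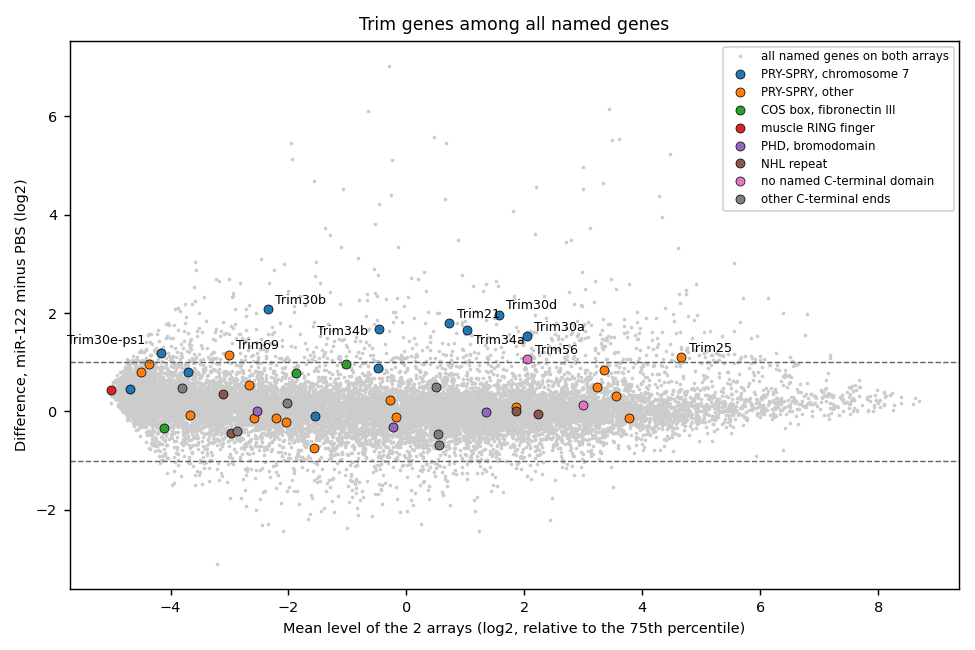
Difference on the log2 scale (miR-122 minus PBS, vertical axis) against the mean log2 level of the 2 arrays (horizontal axis) for all 15031 named genes (grey) and the 47 Trim genes (coloured by C-terminal domain); dashed lines mark 2-fold. The 10 named Trim genes above the upper line include 7 of the chromosome 7 PRY-SPRY list, and no Trim gene lies below the lower line.

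The choice of scaling moved all genes, and with it the balance of the counts. Without any scaling, an alternative added after the data were seen, the median over all genes was lower by 0.28, and 6 Trim genes were at least 2-fold higher and 1 lower. Scaling on the median of each array shifted the median of all genes by -0.18, quantile normalization by -0.13 and the authors' values by -0.12. With median scaling 7 Trim genes were at least 2-fold higher and 0 lower, while 3.13% of all genes were higher and 3.03% lower, so that 50.8% of all genes past 2-fold were higher instead of 71.9%. That share was 59.2% with quantile normalization, 59.9% with the authors' values and 40.5% without scaling. The 6 Trim genes past 2-fold under each of the 11 alternatives were Trim30b, Trim30d, Trim30a, Trim21, Trim34a and Trim34b. All but Trim34a had 1 probe with 1 spot. For such genes other filters, the mean over probes, flagged spots kept and the median over spots hardly alter a difference by construction. Only the other scalings, normexp and the authors' values could move them.

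The Trim30 genes, close relatives in one tandem block, were all higher on the miR-122 array. Trim30b had a signal of 40.3 with PBS and 140.4 with miR-122, which was 4.21-fold higher after scaling, a difference of 2.08 with a scanner error of 0.22. Its PBS signal was dim, and with normexp background correction the difference was 1.28. Trim30d read 630.7 with PBS and 2035 with miR-122, 3.91-fold higher, with a difference between 1.69 and 1.97 over the settings tried. Trim30a, which in mouse macrophages restrains Toll-like receptor signalling by promoting loss of the adaptors TAB2 and TAB3, read 1019 and 2437, 2.90-fold higher. For Trim30d and Trim30a, well clear of background on both arrays, the difference with normexp was within the scanner error of the one given. The transcribed pseudogene Trim30e-ps1 read 15.6 and 29.4, a difference of 1.19 that was 0.51 with normexp and also under 1 with quantile normalization, loess, the authors' values and no scaling. The Trim30 genes resemble each other, probe sequences were not used here, and a probe may read more than 1 of them, so their values are not independent.

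Trim34a and Trim34b, the mouse counterparts of human TRIM34, which was first described as an interferon-responsive finger protein, gave nearly the same fold. Trim34a read 481.0 with PBS and 1255 with miR-122, 3.16-fold higher. Its second probe was dim, at 12.8 and 26.2, and differed by 1.31 against 1.66 for the first. Trim34b read 170.8 and 447.6, 3.17-fold higher. The 2 genes are close copies, and what each probe reads cannot be told apart here.

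Trim12c and Trim12a, mouse relatives of primate TRIM5, were higher by less than 2-fold at the brightest probe. The 3 probes of Trim12c read 222.5, 133.1 and 86.3 with PBS, against 337.0, 243.9 and 201.8 with miR-122. Their differences were 0.88, 1.15 and 1.503, so the gene passed 2-fold on 2 of its 3 probes and, at 1.18, as the mean over probes. Trim12a, near background, read 24.4 and 35.3, a difference of 0.81 that was 0.40 with normexp. Trim6, which is known to make unanchored ubiquitin chains in interferon signalling, was close to background at 13.9 and 15.8, a difference of 0.46 with a scanner error of 0.41.

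Further PRY-SPRY genes of chromosome 7 lie outside this block and did not move alike. Trim21, a cytosolic receptor for antibody that directs antibody-coated viruses to the proteasome, read 375.0 with PBS and 1074 with miR-122. That was 3.47-fold higher, with a difference between 1.52 and 1.80 over the alternatives. Trim68, separated from Trim21 by 7 protein-coding genes of the RefSeq table, read 149.4 and 115.0, a difference of -0.10 that was within its scanner error of 0.21. Among the 11 measured genes of the chromosome 7 list, Trim72 not being one, 7 passed 2-fold, against 4.57% of all genes. Differences were positive for 10 of the 11, where 9063 of 15031 named genes were positive, and the median of the list was 1.53. Among 1273 chromosome 7 genes with no Trim symbol, 3.53% were higher by 2-fold or more, with a median difference of 0.13.

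The order of genes on chromosome 7 sets these values side by side. Between Trim6 and Trim30d the RefSeq table lists 9 protein-coding genes, of which only Gm38525 carries no Trim symbol, and it had no matched probe. Differences in the order of the genes were 0.46 for Trim6, 1.66 for Trim34a, 0.81 for Trim12a, 1.67 for Trim34b, 0.88 for Trim12c, 2.08 for Trim30b, 1.53 for Trim30a, 1.97 for Trim30d and 1.19 for Trim30e-ps1. The olfactory receptor genes on either side were dim, with differences of 0.12 for Olfr649, 0.89 for Olfr651 and 0.33 for Olfr652. Olfr651, next to Trim30e-ps1, thus differed about as much as Trim12a, at a level on the PBS array of -5.17, close to the lowest level counted as well above background, -5.29.

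**Figure D2:**
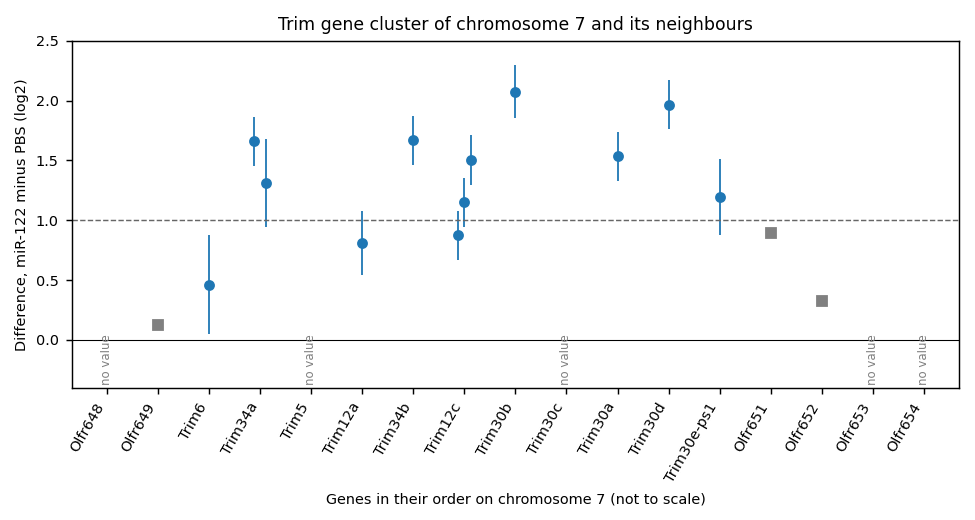
Difference on the log2 scale (miR-122 minus PBS) for genes in their order on chromosome 7; blue points are probes of Trim genes with the scanner error as bars, and grey squares are the brightest probes of neighbouring olfactory receptor genes. Differences run from 0.46 for Trim6 to 2.08 for Trim30b, and the dashed line marks 2-fold.

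Promoters of these genes were searched on both strands for GAAA, any 2 bases, then GAAA, the repeat found in interferon-stimulated response elements. The window is 300 bases, from 250 before to 50 after the annotated start, and the sequences are those of RefSeq on GRCm38.p6. Promoters were listed for 49 of the 65 Trim genes. The motif was present for 7 of the 15 Trim genes that were at least 1.5-fold higher and had a listed promoter, Trim21, Trim30a, Trim30d, Trim34a, Trim12a, Trim12c and Trim26. It was present for 1 of the 20 other Trim genes on both arrays with a listed promoter, Trim2. Per gene, 4.01% of the 11990 named genes on both arrays with a listed promoter held it. At 2-fold, 4 of 9 Trim genes with a listed promoter held it, against 12.9% of the 542 genes of that size. Counted per promoter, the share was 3.44% of 32851. A match describes letters and not binding, and promoters of close paralogs are not independent.
The promoters shown are those of the genes past 1.5-fold that held the motif, Trim12a aside, each written 5′ to 3′ in the direction of the gene, with matches to the motif on either strand in capitals.
Trim21 (chr7:102565433-102565732, minus strand): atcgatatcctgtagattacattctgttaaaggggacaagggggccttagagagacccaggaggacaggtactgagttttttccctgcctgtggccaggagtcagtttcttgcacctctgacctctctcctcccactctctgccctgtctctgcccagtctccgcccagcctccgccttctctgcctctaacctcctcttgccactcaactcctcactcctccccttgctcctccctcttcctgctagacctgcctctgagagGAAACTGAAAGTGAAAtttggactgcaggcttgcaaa
Trim30a (chr7:104465144-104465443, minus strand): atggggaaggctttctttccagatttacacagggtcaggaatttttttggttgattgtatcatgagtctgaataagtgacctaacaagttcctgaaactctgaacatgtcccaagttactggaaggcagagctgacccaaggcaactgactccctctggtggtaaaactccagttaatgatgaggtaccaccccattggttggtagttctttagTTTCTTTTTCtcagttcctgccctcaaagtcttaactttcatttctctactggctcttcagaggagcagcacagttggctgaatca
Trim30d (chr7:104507800-104508099, minus strand): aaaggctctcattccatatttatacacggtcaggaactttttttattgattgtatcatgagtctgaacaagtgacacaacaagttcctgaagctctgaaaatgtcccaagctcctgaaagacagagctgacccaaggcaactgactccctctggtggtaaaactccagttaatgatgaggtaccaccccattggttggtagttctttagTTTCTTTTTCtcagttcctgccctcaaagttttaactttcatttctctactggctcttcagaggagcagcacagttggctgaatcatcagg
Trim34a (chr7:104244207-104244506, plus strand): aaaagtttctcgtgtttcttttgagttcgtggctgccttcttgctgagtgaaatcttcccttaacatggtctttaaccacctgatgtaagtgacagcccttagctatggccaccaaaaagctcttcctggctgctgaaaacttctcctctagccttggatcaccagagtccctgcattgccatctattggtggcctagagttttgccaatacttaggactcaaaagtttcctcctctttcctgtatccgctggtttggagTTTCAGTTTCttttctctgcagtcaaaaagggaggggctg
Trim12c (chr7:104353300-104353599, minus strand): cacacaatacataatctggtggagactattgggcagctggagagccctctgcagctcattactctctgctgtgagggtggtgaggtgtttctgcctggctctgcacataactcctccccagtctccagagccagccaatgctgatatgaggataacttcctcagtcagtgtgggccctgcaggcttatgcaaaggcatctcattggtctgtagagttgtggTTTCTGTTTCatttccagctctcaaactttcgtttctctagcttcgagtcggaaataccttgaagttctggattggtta
Trim26 (chr17:36836896-36837195, plus strand): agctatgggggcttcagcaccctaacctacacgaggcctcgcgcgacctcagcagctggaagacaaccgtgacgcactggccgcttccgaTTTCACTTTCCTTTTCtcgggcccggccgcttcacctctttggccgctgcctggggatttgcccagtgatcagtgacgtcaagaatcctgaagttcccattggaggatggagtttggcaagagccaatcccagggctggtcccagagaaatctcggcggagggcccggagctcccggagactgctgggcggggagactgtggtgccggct

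In Trim21 the capitals cover overlapping matches that begin 13 and 19 bases downstream of the start and read in the direction of the gene. In Trim30a and Trim30d the match lies on the opposite strand and begins 36 and 41 bases upstream of the start, and these promoters share an unbroken run of 118 bases that includes it. Another annotated start of Trim30a also held the motif. In Trim34a it begins 10 bases downstream of the start, in Trim12c 29 bases upstream, and in Trim26 overlapping matches begin 160 and 154 bases upstream, in each case on the opposite strand. The listed promoter of Trim30b, whose difference was 2.08, and that of Trim34b, whose difference was 1.67, held no match in this window. Those of Trim25, Trim56 and Trim69 held none either.
The promoters of the paralogs without a match are shown for comparison.
Trim30b (chr7:104358597-104358896, minus strand): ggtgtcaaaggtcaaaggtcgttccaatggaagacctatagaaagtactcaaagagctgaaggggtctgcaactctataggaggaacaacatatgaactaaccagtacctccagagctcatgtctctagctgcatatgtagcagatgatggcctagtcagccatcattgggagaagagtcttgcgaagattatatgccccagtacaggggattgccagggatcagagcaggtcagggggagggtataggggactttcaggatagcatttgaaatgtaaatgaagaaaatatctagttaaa
Trim34b (chr7:104329221-104329520, plus strand): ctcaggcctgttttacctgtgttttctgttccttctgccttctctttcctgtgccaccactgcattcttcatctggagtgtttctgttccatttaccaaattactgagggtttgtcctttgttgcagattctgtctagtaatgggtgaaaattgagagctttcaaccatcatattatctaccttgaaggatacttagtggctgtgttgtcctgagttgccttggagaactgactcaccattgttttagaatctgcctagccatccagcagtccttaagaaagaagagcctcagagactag

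The listed promoter of Trim30b shared no unbroken run longer than 8 bases with that of Trim30d, and Trim34b none longer than 11 bases with Trim34a. Whether the probes of these paralogs read separate transcripts was not tested.

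Genes listed here as PRY-SPRY outside chromosome 7, with Trim72, went both ways. Of 17 measured, 2 were at least 2-fold higher, against 4.57% of all genes. Differences were positive for 10 and negative for 7, where 9063 of 15031 named genes were positive, and the median of the 17 was 0.23. Trim25, the ligase that attaches ubiquitin chains to the RNA sensor RIG-I and also acts as a ligase for ISG15, read 7278 with PBS and 12886 with miR-122, 2.14-fold higher. Its difference of 1.101 was 1.02 with normexp and with loess, 0.93 with median scaling, 0.91 with quantile normalization and with the authors' values, and 0.82 without scaling. Trim26, reported to promote degradation of nuclear IRF3, read 3207 and 4765, 1.80-fold higher. Trim69, whose human counterpart binds microtubules, read 35.0 and 64.5, 2.23-fold higher, or a difference of 0.64 with normexp. Trim17, known from work on neuronal death in mouse, was dim at 14.5 and 23.5, a difference of 0.97 or 0.43 with normexp. Trim72, a muscle protein of membrane repair, was dim as well at 14.1 and 20.2, with a difference of 0.80 and a scanner error of 0.40. Of these 5 genes, Trim25 and Trim26 were far above background on both arrays, and the others were not.

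Trim47 had the most negative difference of the measured PRY-SPRY genes. Its first probe read 183.8 and 91.2 and its second 148.5 and 74.1, and both differed by -0.73, which is 1.66-fold lower. Without scaling the difference was -1.01, and with normexp -0.42. Agreement between probes speaks to the reading of the transcript on these arrays and not to the spread between cultures. The remaining genes of this list of 17 were within 1.5-fold. Among them Trim27, a nuclear ligase, read 6006 and 4527, a difference of -0.13. Trim35, reported to target IRF7, read 4418 and 4558 at its brighter probe, a difference of 0.32. Trim41 read 3348 and 3876, a difference of 0.49, and Trim11 read 1474 and 1293, a difference of 0.09. Trim65, which attaches ubiquitin to the RNA sensor MDA5, read 73.0 and 55.3, a difference of -0.12. Trim39 and Trim16 had probes that differed in sign. Trim39 read 388.9 and 297.7 at one probe and 79.2 and 77.7 at the other, which gave differences of -0.11 and 0.25. Trim16, which lacks a RING finger and takes part in the handling of damaged lysosomes, read 110.6 and 78.2 at one probe and 80.3 and 82.3 at the other, which gave -0.22 and 0.31. Differences of the rest were 0.55 for Trim43b, 0.23 for Trim43c, -0.06 for Trim62 and -0.14 for Trim7.

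**Figure D3:**
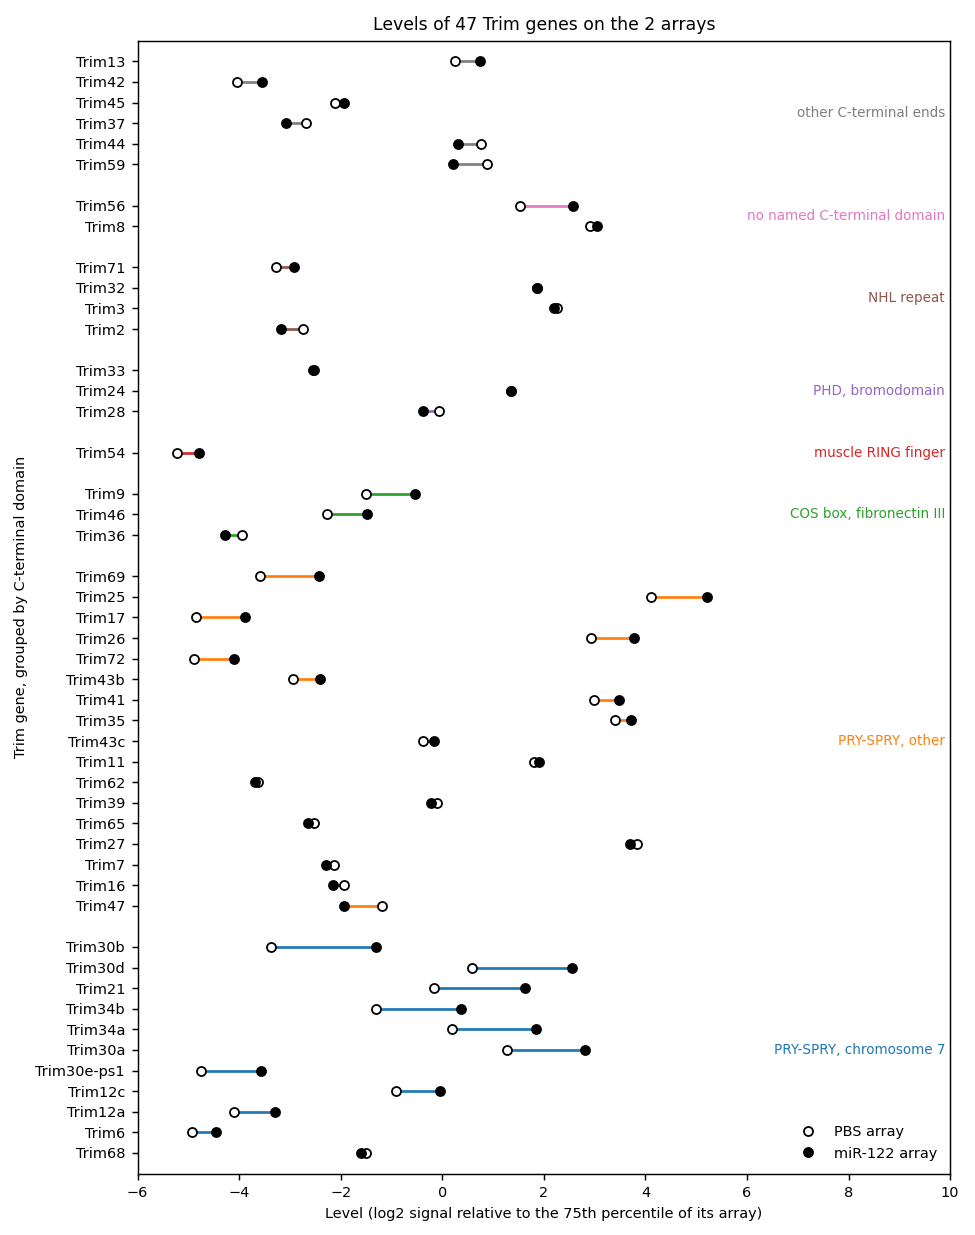
Levels of the 47 Trim genes on the PBS array (open circles) and the miR-122 array (filled circles), as log2 signal relative to the 75th percentile of each array, grouped by C-terminal domain. Lines join the arrays; the longest are those of the chromosome 7 PRY-SPRY genes, up to 2.08 for Trim30b, and levels of different genes come from different probes and cannot be ranked.

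Among genes with no named C-terminal domain, Trim56 was higher and Trim8 was not. Trim56, reported to modify the DNA-sensing proteins cGAS and STING, read 1208 with PBS and 2077 with miR-122, 2.08-fold higher. Its difference of 1.06 was 0.88 with median scaling, 0.93 with normexp and 0.78 without scaling. Trim8, reported to enhance NF-kB signalling, read between 3068 and 3265 over its spots with PBS, and between 2762 and 2999 with miR-122. Its difference after scaling was 0.14, and it turned to -0.04 with median scaling. Trim31, Trim40 and Trim52 of the same class were not well above background on either array.

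The genes listed here by their COS box, a microtubule-binding motif, gave mixed values. Trim9, a ligase of growing axons, read 148.3 and 240.1 at the one of its 3 probes that was well above background, 1.96-fold higher. Trim46, which organises microtubules at the start of the axon, read 87.1 and 124.2, 1.73-fold higher. Trim36 read 27.4 and 17.9, a difference of -0.34 with a scanner error of 0.32. That difference was 0.09 with normexp and -0.61 without scaling. Of the muscle RING finger genes, Trim54 was at the edge of background at 11.2 and 12.5, and Trim63, the atrophy ligase MuRF1, was not well above background on either array.

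Chromatin members and NHL repeat members were within 1.5-fold. Trim28, the corepressor of KRAB zinc finger proteins, read 402.1 and 267.5, a difference of -0.31, or -0.59 without scaling. Trim24, a nuclear receptor cofactor, read 1072 and 881.9 at its brighter probe, a difference of -0.0047, while its second probe gave 0.15. Trim33, a ligase linked to Smad signalling, read 72.4 and 60.1, a difference of 0.0080. Trim32, whose human gene is mutated in a muscular dystrophy, read 1531 and 1264, a difference of 0.00021. Trim3 read 2012 and 1594 at its brighter probe, a difference of -0.06, and its second probe gave 0.06. Trim2 read 62.5 and 38.4, a difference of -0.43 that was -0.02 with normexp, -0.60 with median scaling and -0.70 without scaling. Trim71, a regulator of stem cell messages, read 43.3 and 45.8, a difference of 0.36.

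Genes listed here under other C-terminal ends had a median of -0.11 over 6 measured members, 3 positive and 3 negative. Trim59, which carries a transmembrane segment, was lower at both of its probes. The first read 777.6 and 402.0 and the second 478.9 and 243.9, with differences of -0.68 and -0.70, and the gene was 1.60-fold lower. Over the alternatives the difference of Trim59 ran from -0.95 without scaling to -0.52 with normexp. Trim44, which has a zinc finger of the deubiquitinase type in place of a RING finger, read 717.2 and 431.1, a difference of -0.46. Trim37, a ligase of peroxisomes and centrioles, read 65.6 and 41.4. Its difference of -0.39 was -0.02 with normexp, -0.56 with median scaling and -0.66 without scaling. Trim13, anchored in the endoplasmic reticulum, differed by 0.50 and 0.40 at its probes. At their brightest probes Trim42 differed by 0.48 and Trim45 by 0.17. A dimmer Trim45 probe that passed the background flag on both arrays gave 0.15. Trim42 and Trim45 each had a further probe of opposite sign, which passed that flag with PBS but not with miR-122. Those probes gave -0.14 for Trim42 and -0.77 for Trim45, with scanner errors of 0.43 and 0.59. At 2-fold none of these genes was past the mark after scaling, and Trim47 and Trim59 were the members past 1.5-fold in the lower direction.

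**Figure D4:**
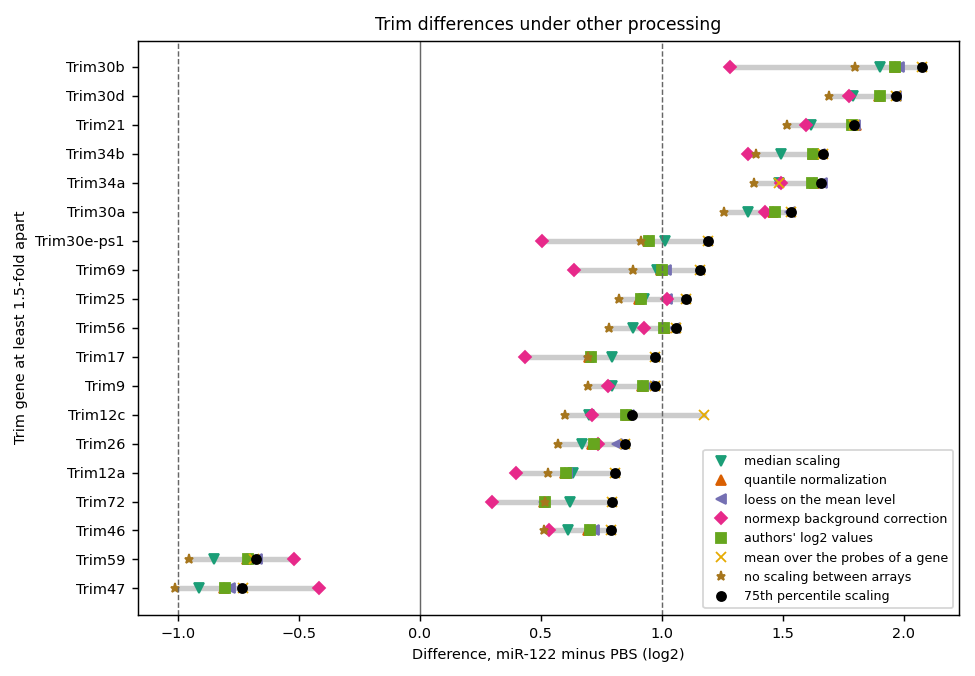
Differences on the log2 scale (miR-122 minus PBS) of the 19 Trim genes at least 1.5-fold apart, with 75th percentile scaling (black circles) and 7 other settings (coloured symbols); grey bars span all settings tried and dashed lines mark 2-fold. Trim30b, Trim30d, Trim21, Trim34b, Trim34a and Trim30a stay right of the upper line, although Trim30b goes from 2.08 to 1.28 with normexp; Trim30e-ps1 goes from 1.19 to 0.51, Trim17 from 0.97 to 0.43 and Trim72 from 0.80 to 0.30.

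For genes seen on a single array only a lower bound of the fold was computed. It compares the brighter array with the dimmer one, where the lowest level passing the background flag stood in if the probe's own level was lower. Trim14, which docks on the mitochondrial adaptor MAVS and lacks a RING finger, was well above background on the miR-122 array only, with signals of 11.7 and 25.5. Its bound was 2.64-fold higher, which is also its plain difference of 1.40, with a scanner error of 0.40. Trim61 read 2.27 and 14.5 at 1 probe, with a bound of 1.63-fold higher and a scanner error of 1.47. Its other probe, at 8.23 and 9.74, was not well above background on either array. Trim55, the muscle ligase MuRF2, read 10.1 and 13.6, with a bound of 1.53-fold higher and a scanner error of 0.46. On the PBS array only were Trim15, at 14.1 and 10.3, with a bound of 1.01-fold lower, and Trim38 and Trim58, for which no fold can be given. Trim38, a known brake on Toll-like receptor signalling, read 11.7 and 10.6, a difference after scaling of 0.15 with a scanner error of 0.47. Trim58 differed by 0.02 after scaling. The 12 genes on neither array were Trim10, Trim29, Trim31, Trim40, Trim50, Trim52, Trim60, Trim63, Trim66, Trim67, Trim75 and Trim80, with signals of at most 10.02 with PBS and 12.04 with miR-122. A gene not well above background here may be expressed below what a single array can read.

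Members grouped by reported function rather than by domain gave the following picture. Of 19 Trim genes listed as acting in innate antiviral or NF-kB signalling, 14 were measured on both arrays, with 12 positive differences, where 9063 of 15031 named genes were positive, and a median of 0.48. At least 2-fold higher were 4 of them, Trim21, Trim30a, Trim25 and Trim56, and Trim12c and Trim26 passed 1.5-fold, against 4.57% of all genes at 2-fold and 12.1% at 1.5-fold. Trim11, Trim27, Trim32, Trim65 and Trim8, also on this list, had differences between -0.13 and 0.14. The list was written with earlier results of these data known, so its count is a description. Of 5 genes without a RING finger 2 were measured on both arrays, Trim16 and Trim44, both with negative differences at the brighter probe.

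TRIM-type genes that carry another symbol were fewer. Of 6 measured on each array, 1 passed 2-fold, against 4.57% of all genes. Pml, which builds nuclear bodies, went from a level of 2.39 with PBS to 4.26 with miR-122, 3.66-fold higher. Mefv, the gene of the inflammasome protein pyrin, differed by -0.21, Cmya5 by 0.33 and Triml2 by 0.16. The sign of Triml2 turned with median scaling, and that of Mefv turned with normexp, to 0.012.

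The enzymes that supply TRIM ligases with ubiquitin were mostly close to the median of all genes. Of 20 ubiquitin, E1 and E2 genes 2 were at least 2-fold higher and 0 lower, against 4.57% and 1.78% of all genes, with a median of 0.19. The 2 were Uba7, 3.05-fold higher, and Ube2l6, 2.75-fold higher, the E1 and E2 enzymes for ISG15, with which Trim25 works as a ligase. Ubb, a polyubiquitin gene, was 1.65-fold higher. Ube2n, Ube2v1 and Ube2d3, E2 enzymes used by RING finger TRIM proteins, differed by 0.17, 0.11 and 0.45. The sign of Ube2n and Ube2v1 turned with median scaling.

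Among 24 measured signalling partners of TRIM ligases, 5 were at least 2-fold higher, against 4.57% of all genes, and 0 lower, against 1.78%, with a median of 0.35. Ddx58, which encodes the Trim25 substrate RIG-I, went from a level of 3.78 with PBS to 5.37 with miR-122, 3.02-fold higher. Ifih1, which encodes the Trim65 substrate MDA5, went from 3.43 to 5.82, 5.24-fold higher, beside the difference of -0.12 for Trim65. Zc3hav1, the zinc finger antiviral protein that uses TRIM25 as a cofactor in human cells, went from -1.51 to -0.07, 2.70-fold higher. Irf7 was 4.93-fold higher, and Nod2, a sensor of bacterial peptides, 2.88-fold higher. Rnf135, another ligase for RIG-I, was 1.57-fold higher. Several members further along these chains differed less, with values of -0.04 for Mavs, 0.08 for Irf3, 0.17 for Tab2 and 0.05 for Tab3, the last pair being targets of Trim30a. Others differed more, with 0.64 for Tbk1, 0.58 for Ikbke, 0.57 for Ticam1 and -0.31 for Traf3. The signs of Irf3, Tab2 and Tab3 turned with median scaling. Sting1 and Cgas, whose proteins Trim56 is reported to modify, differed by 0.38 and 0.35.

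Of 13 measured interferon signal transducers, 6 were at least 2-fold higher and 0 lower, where the shares of all genes were 4.57% and 1.78%, with a median of 0.74. Usp18, a feedback inhibitor of the interferon receptor, was 4.64-fold higher, Irf1 4.43-fold, Stat2 3.03-fold and the receptor kinase gene Tyk2 2.66-fold higher. Jak2 and Socs1 were 2.21-fold and 2.09-fold higher, and both were under 2-fold with median scaling. These genes were measured on the same 2 arrays as the Trim genes and are no separate evidence of direction.

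The macrophage label was checked against 10 marker genes, of which 9 had a matched probe and all 9 were well above background on both arrays, at levels on the PBS array between -3.08 and 6.78. Their differences ran from -0.85 to 3.34. At 2-fold 2 were higher and 0 lower, against 4.57% and 1.78% of all genes. At 1.5-fold 2 were higher and 3 lower, against 12.1% and 5.99%. Markers of B cells, fibroblasts, epithelium and hepatocytes were measured for 8 of 16 genes, at levels on the PBS array of at most -3.53. Their differences ran from -0.14 to 0.9998, with Serpina1a at 0.9998 and Epcam at 0.68 the highest, and with the other 8 genes not measured on both arrays. Of 5 T cell markers 3 were measured, at levels on the PBS array between -0.88 and 0.90, with differences from -0.37 to 1.02, the highest being that of Lck. The part of other cells in the Trim differences was not tested. With 1 array each, a different number of cells of a type and a different amount of RNA per cell cannot be told apart. The reference genes Actb, Gapdh and Hprt differed by 0.21, 0.18 and -0.25, and without scaling Actb and Gapdh had negative values. No spot of the arrays was saturated.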

How the data were processed

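Total RNA of 2 cultures was hybridised to Agilent single-colour arrays, 1 for PBS and 1 for miR-122, grouped by source name. Intensities in the deposited scanner output came, per the file headers, from version 11.0.1.1 of Agilent Feature Extraction. The processed signal used here is the one the software had already corrected for background, and it was not normalized between arrays. The authors' deposited value table appears to be on a log2 scale, judged from its values, with column medians of 5.16 for PBS and 5.16 for miR-122. Its normalization is not stated in the sources used.

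Control spots and spots flagged as outliers were left out. Processed intensities were taken to log2 and averaged over the spots of a probe. From each array its 75th percentile, taken over all probes that are not controls, was then subtracted. Accessions were matched without versions to a RefSeq table of GRCm38.p6, used for names and gene order, and 27234 of 39429 probes matched. Each gene was represented by the brightest of its probes that passed the background flag on both arrays. With 1 array per group there was no test, and sizes of 1.5-fold, 2-fold and 4-fold were counted. Transcript copies that share probes were not separated.

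The members, lists and naming rule were chosen with earlier results of these data known. The lists of roles and partners were written from general knowledge. Every Trim gene could be named. Values were given for genes past 1.5-fold, with probes of opposite sign, or with a bound, for the 10 with the highest signal on the PBS array, and for members near 0. From the other lists the members with the largest differences and the known partners of Trim proteins were named. Socs1, Jak2, Tbk1, Ikbke, Ticam1, Traf3, the markers of other cell types and the olfactory neighbours were named after their values were seen. Alternatives were other scalings (median, quantile, loess with a span of 0.3, none), normexp with an offset of 50 on median spot intensities, the authors' values, other filters, the mean over probes, flagged spots kept and the median over spots. Counting was tested on simulated signals. R 4.3.3, limma 3.58.1, Python 3.11.15, numpy 2.4.6 and pandas 2.3.3 were used.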

Additional observations from a re-analysis of the deposited data

How the results depend on the processing

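The count of Trim genes at least 2-fold higher was 10 of 47. It lay between 7 and 12 under the 10 other settings with scaling or with the authors' values, and the count lower was 0 under each of them. The count of 12 came with looser background filters, which kept 53 and 65 Trim genes. Under those 10 settings between 2.58% and 6.57% of all genes were higher and between 0.951% and 3.03% lower. Without scaling, a setting added after the data were seen, 6 Trim genes were higher and 1 lower, with a median difference of 0.081 against 0.36. At 1.5-fold 17 genes were higher and 2 lower, and at 4-fold 1 gene, Trim30b, was higher. The median lay between 0.17 and 0.41 under those 10 settings. By gene, 13 of 47 differences moved by more than the scanner error with normexp, 2 with the mean over probes and 40 without scaling, and none did under the other settings. For several of these that was fixed in advance. Median scaling shifts all genes by -0.18, less than the smallest scanner error of a measured Trim gene, 0.20. Other filters, flagged spots kept and the median over spots hardly alter a gene with 1 probe and 1 spot. No gene past 2-fold changed sign. The cause was not tested, except that removing the scaling shifts all genes by -0.28 by construction. No paired analysis was possible because each group held 1 array, and for the same reason no replicate could be left out. With normexp, which also adds an offset and starts from median spot intensities, Trim30e-ps1, Trim69, Trim17, Trim72 and Trim12a were at most 0.64.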
